A study of Mus musculus with 45 samples.

Results

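Expression of 10 protein-coding genes, Fgfrl1, Lrp1, Grin1, Slc16a3, Hip1r, Kank1, Kank3, Zmat5, Ccdc107 and 9830001H06Rik, was followed through 24 RNA-seq samples of mouse embryonic stem cells (ESCs). The genes were chosen by their ES values, which were lower in homozygous than in heterozygous deletion ESCs of both knockout lines, ΔPG and ΔG. The difference in undifferentiated ESCs is therefore the choice itself and is given here as a description without a test. The limits behind the choice were a difference below -0.5 on the log2 scale with an adjusted p under 0.1 in each line. These limits held for 14 of the 20645 genes that were tested in both tables, out of 33924 genes listed, and these 10 are members of that group. The other 4 were 5430416N02Rik, Mid1, Mtfp1 and Ttc39c. The question for the 10 genes was whether the lower value of the homozygous cells was still present after differentiation with retinoic acid, and how each gene responded to retinoic acid itself.

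Most of the genes encode proteins of the cell surface and the cell cortex. Fgfrl1 is a receptor that binds fibroblast growth factors but lacks the intracellular kinase domain of the classical FGF receptors, Lrp1 is a large endocytic receptor of the LDL receptor family, Grin1 is the obligatory subunit of NMDA-type glutamate receptors, and Slc16a3 (also known as MCT4) exports lactate from glycolytic cells. Hip1r links clathrin-coated pits to actin during endocytosis, and Kank1 and Kank3 belong to a family of ankyrin-repeat proteins that bind talin at the rim of focal adhesions. Zmat5 is a zinc finger protein of the U11/U12 particle of the minor spliceosome. Retinoic acid binds nuclear receptors of the RAR and RXR families, and ESCs treated with it leave the pluripotent state.

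Homozygous cells of both knockout lines lack the body of the lncRNA gene 5430416N02Rik, and heterozygous cells lack it on a single allele. A ΔPG allele has also lost the promoter and carries PGK-puro at the site, whereas a ΔG allele keeps the promoter, followed by GFP-IRES-Puro. The cells derive from the D3 mouse ESC line (strain 129), and each line was measured as heterozygous and homozygous ESCs, either with DMSO (ES) or after 48 h with retinoic acid at 2 µM (RA), in 3 biological replicates for each of 8 groups. By a figure of the study, all heterozygous samples of a line are of its clone He1 and all homozygous samples of its clone Ho1. The controls are therefore cells that carry the cassette on one allele, no unedited cells were included, and a difference between genotypes cannot be told apart from one between 2 clones. Values are regularized log (rlog) values on a log2 scale, with the 12 samples of ΔPG and the 12 samples of ΔG normalized separately, so levels are compared within a line only. The replicate spread is that between cultures of a clone. In such bulk samples, fewer cells of a type and less RNA per cell cannot be told apart.

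The samples showed the states that their labels give. In RA, 6 of 6 ESC markers were lower and 6 of 6 retinoic acid targets were higher in both lines, and 5430416N02Rik was lower in homozygous cells by 1.81 (ΔPG) and 2.75 (ΔG) on the log2 scale, with limma adjusted p of 0.00103 and 2.77e-11. For the summed level of the 6 ESC markers, each rlog value was raised back from log2, then added. In ΔPG ES it was 10300 to 10600 in heterozygous and 8880 to 8960 in homozygous samples. In ΔG ES it was 10700 to 11100 and 10900 to 11000. Between genotypes in ΔPG ES, limma called 1 of the 6 lower, Pou5f1 (-0.52), and the others ran from -0.35 (Esrrb) to 0.11 (Nanog). With the trend with GC content described below removed, the 6 ran from -0.24 (Zfp42) to 0.31 (Klf4). Values that varied were found for 6 ESC markers, 6 retinoic acid targets, 5 endoderm markers, 6 fibroblast markers and 4 of 5 neural markers. Of the neural markers, Neurog2, a proneural transcription factor, lay at the bottom of the scale, with group means of -1.98 to -1.95 in ΔPG and -2.23 to -2.18 in ΔG.

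The promoter letters are shown for 5 genes whose direction in RA differs. RefSeq sequence (GRCm38.p6 table) was found for 9 of the 10 genes, with 9830001H06Rik as the exception, and each stretch of 250 bases before the annotated start matched 1 place in the NCBIM37 genome. Of the shown genes, Hip1r and Kank1 rose in RA and Kank3 and Slc16a3 fell in both lines, and Ccdc107 fell in ΔPG. Capitals mark the GC box GGGCGG or its reverse complement and, in Ccdc107, the nuclear receptor half-site AGGTCA. The stretches of Ccdc107 and Slc16a3 lie inside the GENCODE gene model, which starts further upstream.
Hip1r (chr5:124423387-124423636, plus strand): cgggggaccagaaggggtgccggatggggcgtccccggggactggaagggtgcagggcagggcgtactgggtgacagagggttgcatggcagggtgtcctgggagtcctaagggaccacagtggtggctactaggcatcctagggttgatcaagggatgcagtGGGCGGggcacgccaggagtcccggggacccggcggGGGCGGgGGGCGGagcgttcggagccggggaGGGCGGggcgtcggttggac
Kank1 (chr19:25311215-25311464, plus strand): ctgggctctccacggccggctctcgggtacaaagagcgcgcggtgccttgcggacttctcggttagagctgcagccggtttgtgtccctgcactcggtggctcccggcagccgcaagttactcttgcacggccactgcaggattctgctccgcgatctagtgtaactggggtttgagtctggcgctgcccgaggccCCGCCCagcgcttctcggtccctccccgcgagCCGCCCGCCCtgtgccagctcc
Kank3 (chr17:33947218-33947467, plus strand): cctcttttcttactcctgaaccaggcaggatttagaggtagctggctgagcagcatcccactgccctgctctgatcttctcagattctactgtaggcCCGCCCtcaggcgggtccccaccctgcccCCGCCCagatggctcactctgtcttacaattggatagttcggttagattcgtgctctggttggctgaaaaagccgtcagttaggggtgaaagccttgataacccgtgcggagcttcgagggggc
Slc16a3 (chr11:120810131-120810380, plus strand): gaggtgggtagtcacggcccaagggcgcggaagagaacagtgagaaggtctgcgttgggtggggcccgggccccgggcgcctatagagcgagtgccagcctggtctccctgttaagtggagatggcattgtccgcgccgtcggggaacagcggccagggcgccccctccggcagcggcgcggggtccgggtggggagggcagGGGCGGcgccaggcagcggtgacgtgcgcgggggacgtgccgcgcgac
Ccdc107 (chr4:43505987-43506236, plus strand): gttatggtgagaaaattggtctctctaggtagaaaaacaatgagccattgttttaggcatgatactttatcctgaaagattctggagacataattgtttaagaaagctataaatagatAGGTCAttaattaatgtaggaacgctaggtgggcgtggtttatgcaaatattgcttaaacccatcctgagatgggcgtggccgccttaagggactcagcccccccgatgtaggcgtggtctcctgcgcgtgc
A GC box stood in 6 of the 9 promoters, against 32.7% of 32851 promoters of the same length. The motif CACCC stood in 4 of 9 (52% of all promoters), and AGGTCA in 1 of 9 (14% of all), each searched on both strands with overlapping matches kept. GC boxes occurred both in genes that rose in RA (Fgfrl1, Hip1r, Kank1, Lrp1) and in genes that fell (Kank3, Slc16a3). The promoters had a median GC content of 67.2%, with a range from 41.2% (Zmat5) to 73.6%, against 52.4% over all promoters.

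In undifferentiated ESCs, the 10 genes differed between genotypes by -0.87 to -0.52 in ΔPG, with a median of -0.58, and by -0.70 to -0.54 in ΔG, with a median of -0.58. The median over all genes tested was 0.0019 in ΔPG and -0.0057 in ΔG. Calls with this direction were made for 6.29% of all genes in ΔPG and 0.63% in ΔG. Heterozygous and homozygous samples of all 10 genes did not overlap in either line, which held in this direction for 20.9% of all genes in ΔPG and 9% in ΔG. These values follow from the choice of the genes. The steepest difference in ΔPG was that of Ccdc107 (-0.87), where heterozygous samples had 1.83-fold the homozygous level on the linear scale of rlog, and in ΔG that of 9830001H06Rik (-0.70). Just inside the limits were Kank1 and Fgfrl1, both at -0.52 in ΔPG.

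**Figure D1:**
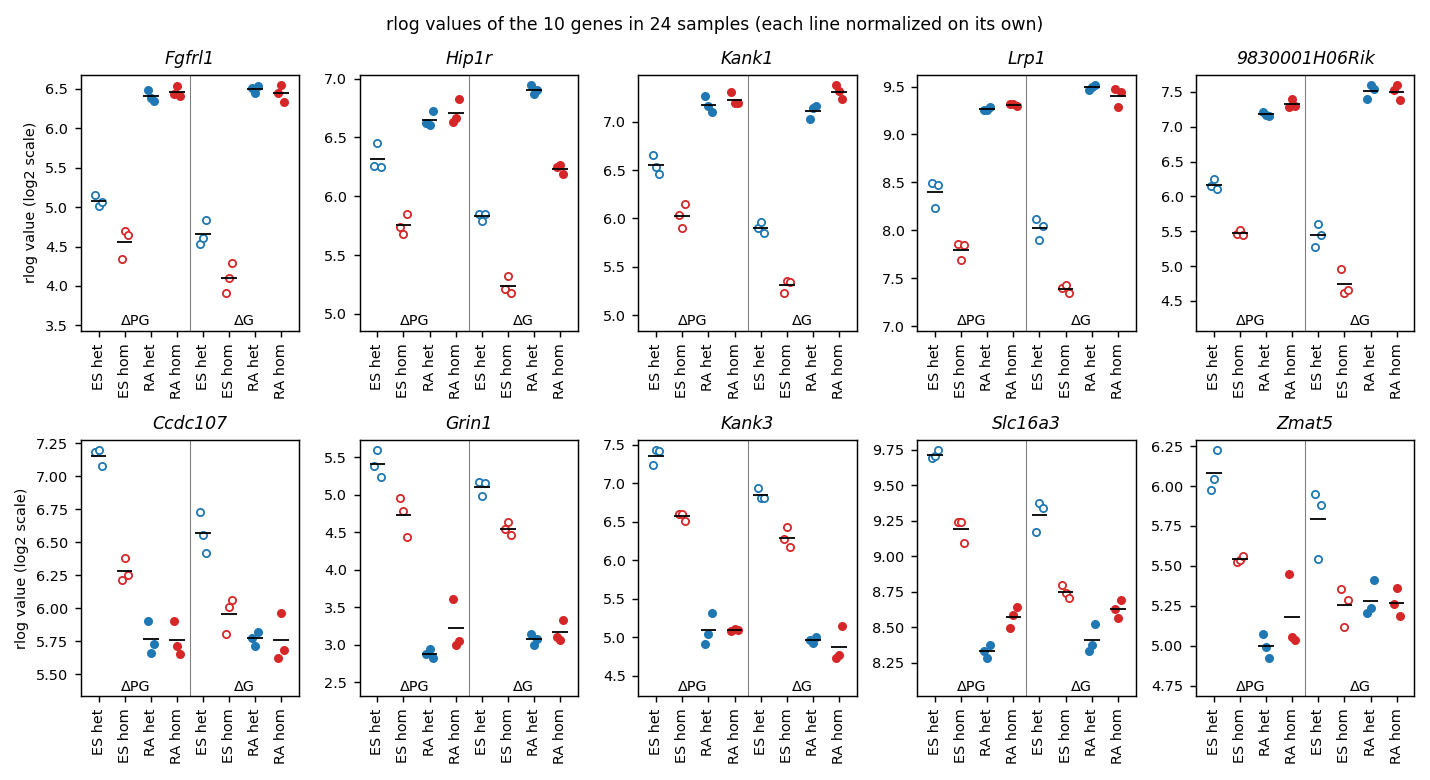
rlog values (log2 scale) of the 10 genes in all 24 samples, with 3 points and a mean line per group (ES open, RA filled, heterozygous blue, homozygous red) and ΔPG to the left of ΔG in each panel. In ES the red points lie below the blue points in every panel, which is how the genes were chosen, and in RA they separate downwards for Hip1r in ΔG.

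The ES differences of the lines stood differently against base composition. The exonic GC content of the 10 genes ran from 53.9% (Kank1) to 60.2% (9830001H06Rik), at or above the 71.2 percentile of the 11549 genes whose mean rlog value reached 3 in ΔPG ES, whose median was 49.9%. In ΔPG ES the difference between genotypes fell with GC content across genes, with a Pearson r of -0.714, a description across genes of the same 6 samples. In ΔG ES that r was 0.002. The 2888 genes within the GC range of the 10 genes had a median difference of -0.37 in ΔPG ES, and 2873 such genes had -0.0094 in ΔG ES. After the trend with GC content was removed from each sample, the median of the 10 genes was -0.21 in ΔPG ES and -0.57 in ΔG ES. In ΔPG ES 1 of the 10, Ccdc107 at -0.51, was then still below -0.5, and Fgfrl1 was at -0.06, while in ΔG ES 10 of 10 were.

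**Figure D2:**
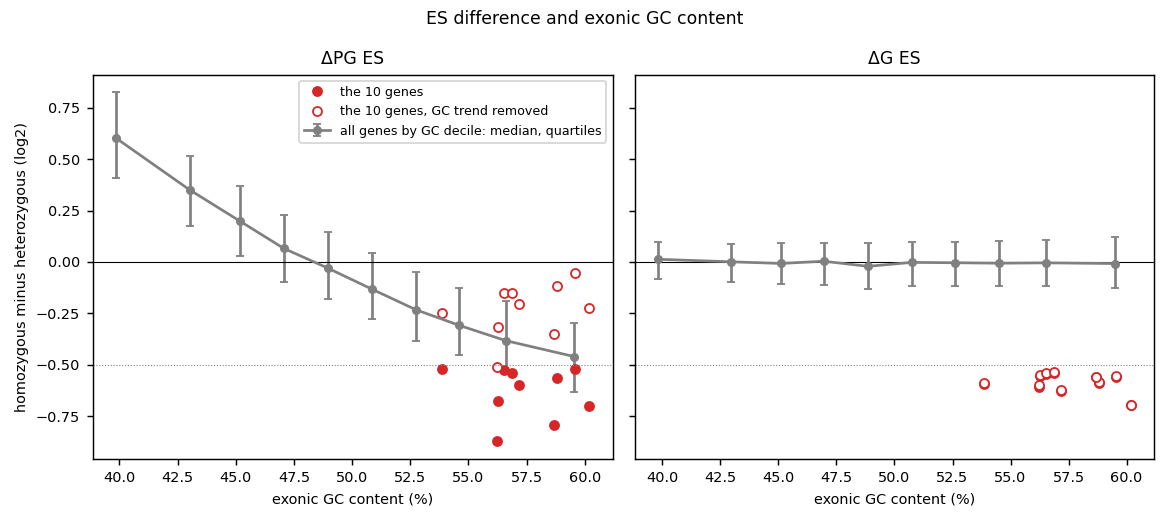
Homozygous minus heterozygous difference in ES (log2) against exonic GC content (%), with grey points for the median and grey bars for the quartiles of all genes in deciles of GC content, and red points for the 10 genes before (filled) and after (open) removal of the GC trend. In ΔPG the grey medians slope downwards and the open points lie closer to 0 than the filled ones, and in ΔG filled and open points nearly coincide.

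After RA the lower value of the homozygous cells was seen in 1 gene of 1 line. In ΔPG RA, limma called 0 of the 10 genes (2 of 10 had an unadjusted p under 0.05), where 0.846% of 21979 genes were called and 0.605% were called lower. Differences ran from -0.0076 to 0.33 on the log2 scale, 9 of 10 were above 0, and 10 of 10 had a 95% interval that lay above -0.5, the lowest bound being -0.26 for Kank3. In ΔG RA, 1 of the 10 genes was called lower, where 2.14% of 22048 genes were called and 1.46% were called lower, and that gene was Hip1r. Differences ran from -0.67 to 0.22, 3 of 10 were above 0 and 7 below, and 3 had an unadjusted p under 0.05. The other 9 had 95% intervals that lay above -0.5, with the lowest bound at -0.36, again for Kank3. The medians of the 10 genes were 0.06 in ΔPG RA and -0.01 in ΔG RA, against 0.0052 and 0.0008 over all genes. The GC trend of ΔPG ES was absent in ΔPG RA, where the Pearson r with GC content was 0.001. In ΔG RA that r was 0.117. In ΔPG, the decile of genes highest in GC content had a median difference of -0.46 in ES and 0.01 in RA. High-GC genes in general thus lost their lower homozygous value in ΔPG RA. The part of this trend in the change of the 10 genes was not tested.

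Hip1r (ENSMUSG00000000915.9, NCBIM37 chr5:124423637-124453220, plus strand) kept a lower value in homozygous ΔG cells under RA. In ΔG RA the heterozygous samples had rlog values of 6.95, 6.87 and 6.90, and the homozygous samples 6.25, 6.26 and 6.19. The groups did not overlap and lay far apart relative to their spread. The difference was -0.67 (SE 0.0876, 95% interval -0.85 to -0.49, limma adjusted p = 2.78e-05), a 1.59-fold lower level, and it stood between -0.70 and -0.65 in all 16 alternative analyses, with adjusted p from 2.04e-09 to 0.0055. In ΔG ES the heterozygous samples had 5.85, 5.79 and 5.85 and the homozygous samples 5.21, 5.33 and 5.18. Hip1r thus stood lower by a similar amount in both states of ΔG, -0.59 in ES and -0.67 in RA. ΔPG RA looked different, with 6.62, 6.60 and 6.72 in heterozygous and 6.63, 6.67 and 6.83 in homozygous samples. Here the groups overlapped, and the difference was 0.06 (95% interval -0.11 to 0.23, limma adjusted p = 0.835). The summed level of the fibroblast markers also differed in ΔG RA, at 744 to 797 in heterozygous and 415 to 459 in homozygous samples. In that list 1 of 6, Col1a2, was called lower, by 1.41. The others ran from -0.24 (Col1a1) to 0.17 (Thy1). The summed level of the neural markers was higher in homozygous samples, at 770 to 796 against 630 to 653 in heterozygous ones. In that list 1 of 4, Tubb3, was called higher, by 0.99, and Nes stood at 0.26, while Pax6 stood the other way at -0.40. The part of both lists in the ΔG RA differences of Hip1r, Slc16a3 and Kank1 was not tested.

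Slc16a3 (ENSMUSG00000025161.10, chr11:120809794-120822182, plus strand) stood the other way round in RA. In ΔPG RA its heterozygous samples had 8.33, 8.28 and 8.37 and its homozygous samples 8.49, 8.58 and 8.64. In ΔG RA they had 8.33, 8.38 and 8.52 against 8.63, 8.57 and 8.69. The homozygous samples lay above all heterozygous ones in both lines, whereas in ES they lay below. The difference was 0.24 in ΔPG (SE 0.0492, 95% interval 0.13 to 0.35, limma adjusted p = 0.0285) and 0.22 in ΔG (SE 0.0643, 95% interval 0.09 to 0.35, limma adjusted p = 0.0383). Both stayed under the limit of 0.5, so neither was a call. Over 16 alternative analyses the adjusted p ran from 0.00235 to 0.146 in ΔPG and from 0.00912 to 0.25 in ΔG. It exceeded 0.1 in ΔPG without heterozygous replicate 1 or 2 or homozygous replicate 2 or 3, and in ΔG without heterozygous replicate 1 or 2 or homozygous replicate 1 or 3, under quantile normalization and without the variance trend, while the homozygous cells stayed higher in each. The summed endoderm markers were lower in homozygous ΔPG RA (226 to 244 against 314 to 341 in heterozygous samples), with Gata4 and Sox17 called lower. Lower sums were also found for the fibroblast markers (516 to 542 against 577 to 603) and the neural markers (786 to 829 against 870 to 903). Their genes were mixed. Col3a1 was called lower (-0.67) while Col1a2 stood at 0.23, and Tubb3 stood at -0.49 while Pax6 stood at 0.05. In ΔG RA the summed endoderm markers had 317 to 332 in homozygous and 344 to 378 in heterozygous samples. Gata4 stood at -0.48 there and Foxa2 at 0.31, beside the fibroblast and neural values given for Hip1r. The part of these markers in the differences of Slc16a3 was not tested.

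Homozygous samples also lay above heterozygous ones without overlap for Grin1, Lrp1 and 9830001H06Rik in ΔPG RA, making 4 of 10 genes with Slc16a3, against 9.93% of all genes, and 0 of 10 lay below without overlap, against 8.87%. In ΔG RA this was so for 2 of 10, Kank1 and Slc16a3, against 10.1% of all genes, and 1 of 10 (Hip1r) lay below, against 11.7%. Kank1 had 7.03, 7.14 and 7.16 in heterozygous and 7.38, 7.32 and 7.23 in homozygous ΔG RA samples. Its difference of 0.20 (95% interval 0.03 to 0.37) had a limma adjusted p of 0.15, and that of 0.14 for 9830001H06Rik in ΔPG RA (95% interval 0.02 to 0.27) one of 0.268. Grin1 had the widest interval, 0.33 in ΔPG RA with -0.09 to 0.76, which rested on homozygous replicate 1 at 3.61 beside 2.99 and 3.04, and without that replicate the difference was 0.14. Zmat5 had the same replicate at 5.45 beside 5.06 and 5.04, with 0.19 for all samples and 0.05 without it. For Ccdc107, Fgfrl1 and Kank3 the differences in RA lay between -0.09 and 0.06 in both lines, with adjusted p of 0.826 or above, and their 95% intervals reached from -0.36 to 0.28.

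**Figure D3:**
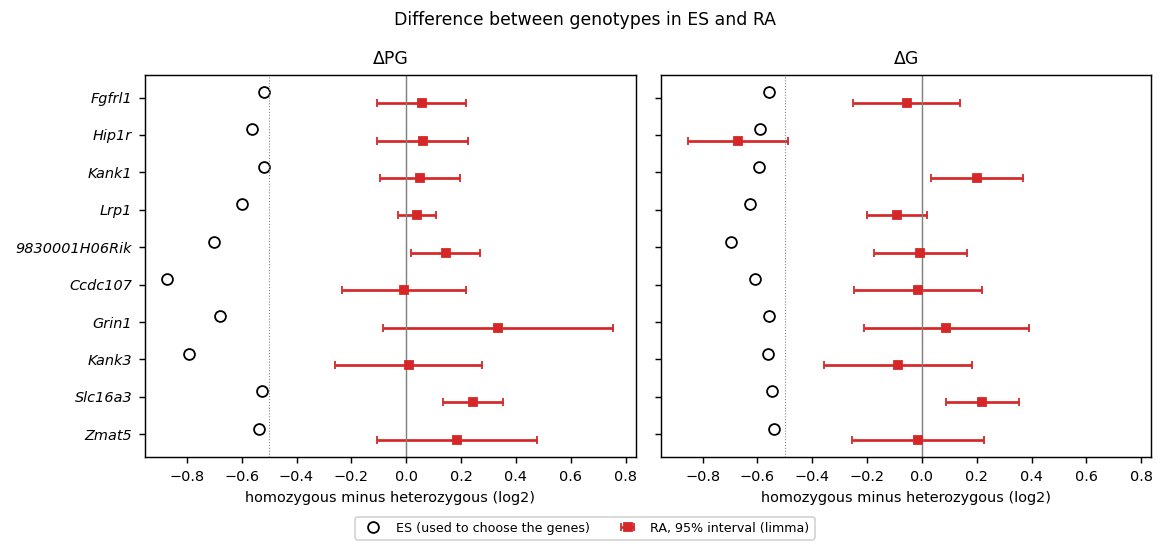
Homozygous minus heterozygous difference (log2) of each gene in ES (open circles, the values that chose the genes, no error drawn) and in RA (red squares with 95% intervals from limma), with a dotted line at the limit of -0.5. In ΔPG all RA squares lie near or above 0, and in ΔG only Hip1r at -0.67 lies beyond the dotted line.

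The 10 genes fell into 2 opposite classes in their response to retinoic acid, taken as the mean over both genotypes of RA minus ES. In ΔPG all 10 passed the limits, 5 upwards and 5 downwards, beside 16.3% and 11.3% of all genes. In ΔG 5 passed upwards and 3 downwards, beside 17.1% and 11.7% of all genes. The RA samples lay without overlap above the ES samples for 5 and below them for 5 of the 10 genes in ΔPG, as for 19.3% and 14.6% of all genes, and for 5 and 3 in ΔG, as for 21.9% and 17.4% of all genes. The same 5 genes rose in both lines, and these were Fgfrl1, Lrp1, Kank1, Hip1r and 9830001H06Rik. The median absolute response of the 10 genes was 1.10 in ΔPG and 1.63 in ΔG, against 0.21 and 0.23 over all genes. All genes include those with a mean rlog value under 3, where rlog leaves little room for a response. The lowest mean among the 10 genes was 3.97 (Grin1 in ΔG). Among genes with a mean of at least 3, 2814 passed upwards and 2268 downwards of 11904 in ΔPG. In ΔG these were 3032 and 2402 of 11997.

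Among the surface receptors, Fgfrl1 (ENSMUSG00000008090.8, chr5:109123248-109135969, plus strand) rose by 1.61 in ΔPG (SE 0.0684, limma adjusted p = 4.03e-11) and by 2.09 in ΔG (SE 0.0828, limma adjusted p = 1.19e-19). Its rlog values were 5.16, 5.02 and 5.07 in heterozygous ΔPG ES and 6.49, 6.38 and 6.35 in heterozygous ΔPG RA. In homozygous ΔPG cells they were 4.34, 4.69 and 4.65 in ES and 6.44, 6.54 and 6.42 in RA. The homozygous cells started lower and ended at the same height as the heterozygous ones, with overlapping samples. Lrp1 (ENSMUSG00000040249.9, chr10:126975217-127058204, minus strand) rose by 1.19 in ΔPG (SE 0.0436) and by 1.74 in ΔG (SE 0.0447), with limma adjusted p of 7.99e-12 and 2.02e-24. In ΔG its heterozygous samples went from 8.12, 7.90 and 8.04 to 9.47, 9.50 and 9.52. Its homozygous samples went from 7.40, 7.43 and 7.35 to 9.48, 9.29 and 9.44. All RA samples of Lrp1 lay above all ES samples, in both lines.

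Grin1 (ENSMUSG00000026959.7, chr2:25146701-25174707, minus strand) had the steepest fall of the 10 genes, by 2.01 in ΔPG (SE 0.1258) and by 1.70 in ΔG (SE 0.0907), with limma adjusted p of 3.26e-09 and 1.91e-16. In ΔPG its heterozygous samples had 5.38, 5.59 and 5.24 in ES and 2.88, 2.94 and 2.82 in RA. In homozygous ΔPG cells they were 4.95, 4.78 and 4.44 in ES and 3.61, 2.99 and 3.04 in RA. At values near 3, rlog draws samples towards their common mean, so differences there can be understated. The lactate exporter Slc16a3 fell by 1.00 in ΔPG (SE 0.034, limma adjusted p = 3.48e-12), from 9.70, 9.71 and 9.75 in heterozygous ES to the RA values given above. In ΔG it fell by 0.50 (SE 0.044, limma adjusted p = 2.37e-11), at the very edge of the limit. Quantile normalization gave -0.38 in ΔG, and leaving out 1 of 6 different replicates gave -0.49 to -0.48, each under the limit.

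Of the genes of the cell cortex, Kank1 (ENSMUSG00000032702.9, chr19:25311465-25508987, plus strand) rose and Kank3 (ENSMUSG00000042099.8, chr17:33947465-33959863, plus strand) fell in both lines. Kank1 rose by 0.91 in ΔPG (SE 0.0539) and by 1.60 in ΔG (SE 0.0639), with limma adjusted p of 1.75e-09 and 1.35e-19. In ΔG its heterozygous ES samples had 5.90, 5.97 and 5.84 and its homozygous ES samples 5.23, 5.35 and 5.35, all below the RA values given above. Kank3 fell by 1.88 in ΔPG (SE 0.0671) and by 1.65 in ΔG (SE 0.0798), with limma adjusted p of 6.24e-12 and 1.7e-17. Its heterozygous ΔPG samples went from 7.23, 7.43 and 7.42 to 4.91, 5.03 and 5.31. Its homozygous ΔPG samples went from 6.60, 6.60 and 6.51 to 5.08, 5.11 and 5.09. The genotypes of Kank3 stood apart in ES and overlapped in RA. Hip1r rose by 0.64 in ΔPG (SE 0.0566) and by 1.04 in ΔG (SE 0.0661), with limma adjusted p of 1.54e-07 and 1.51e-14.

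Of the other genes, 9830001H06Rik (ENSMUSG00000055485.6, chr2:156841535-156904990, minus strand, listed by RefSeq as a synonym of Soga1) had the steepest rise in ΔG, by 2.41 (SE 0.0759, limma adjusted p = 3.58e-22), a 5.33-fold higher level. In ΔPG it rose by 1.43 (SE 0.0431, limma adjusted p = 9.18e-13). Ccdc107 (ENSMUSG00000028461.6, chr4:43505772-43508793, plus strand) fell by 0.96 in ΔPG (SE 0.0601, limma adjusted p = 3.55e-09). Zmat5 (ENSMUSG00000009076.4, chr11:4604681-4637672, plus strand) fell by 0.72 in ΔPG (SE 0.0785, limma adjusted p = 1.51e-06). In ΔG their responses were -0.50 (95% interval -0.66 to -0.34) and -0.25 (95% interval -0.42 to -0.07), just short of and well short of the limit of 0.5. Quantile normalization moved these to -0.66 and -0.52, past the limit. In ΔG RA, Ccdc107 had heterozygous values of 5.78, 5.72 and 5.82 and homozygous values of 5.62, 5.96 and 5.69. Its heterozygous ES samples stood above all of these at 6.73, 6.56 and 6.42, while the homozygous ES samples reached down into them at 5.80, 6.01 and 6.06.

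Within a genotype, the responses share their ES samples with the choice of the genes and are given without a test. In ΔPG, Hip1r changed by 0.33 in heterozygous and 0.95 in homozygous cells, Kank1 by 0.63 and 1.20, and Lrp1 by 0.87 and 1.51. The falling genes changed less in homozygous cells, with Grin1 at -2.52 and -1.51, Ccdc107 at -1.39 and -0.52, and Zmat5 at -1.08 and -0.36. The rises were thus steeper and the falls shallower in homozygous cells, which started lower by the choice of the genes. Where the genotypes ended level in RA, this pattern follows from that choice. In ΔG, Hip1r was the exception with 1.08 in heterozygous and 1.00 in homozygous cells. Zmat5 in homozygous ΔG cells changed by 0.02, from 5.36, 5.12 and 5.29 in ES to 5.26, 5.36 and 5.19 in RA.

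**Figure D4:**
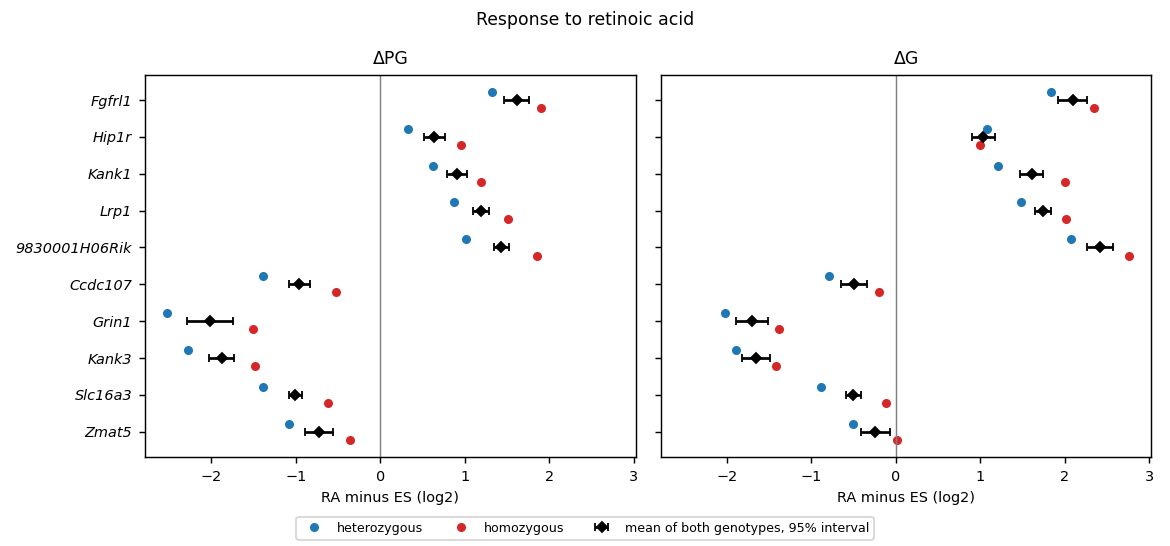
RA minus ES (log2) of each gene in heterozygous (blue) and homozygous (red) cells, and their mean with its 95% interval from limma (black). The upper 5 genes rise in both genotypes of both lines, the means of the lower 5 lie below 0, with homozygous ΔG cells of Zmat5 at 0.02, and the genotypes of Hip1r in ΔG differ least, at 1.08 and 1.00.

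The partners and relatives of the 10 genes were counted from lists. Of 14 genes of the KANK and cortical adhesion complex, 9 rose and 1 fell in RA in both lines. Kank4 rose by 1.02 in ΔPG and 1.61 in ΔG like Kank1, and Kank2 fell by 0.82 and 0.90 like Kank3, so the KANK family held both directions (limma adjusted p of 5.05e-11 or less for Kank2 and 5.85e-08 or less for Kank4). Talin 1 (Tln1), the actin-binding integrin activator that KANK proteins bind, rose by 0.58 and 0.99. In ΔG RA, Kank4 was higher in homozygous cells by 0.59 (SE 0.0879, limma adjusted p = 0.000121). Kank1 (0.20, limma adjusted p = 0.15) and Kank2 (0.22) stood in the same direction without a call, and Kank3 (-0.09) in the other. In ΔPG ES, Kank2, Phldb1, Tln1 and Tln2 were called lower in homozygous cells, but after removal of the GC trend their differences lay between -0.29 and -0.22, under the limit of 0.5. In ΔG ES, Kank2 differed by 0.02 and Tln1 by 0.22, and 1 of the 14, the kinesin Kif21a, was called lower.

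Of the 4 FGF receptors with a kinase domain, 3 rose in RA in both lines, as the kinase-less Fgfrl1 did, with Fgfr2 highest at 3.92 in ΔPG and 4.75 in ΔG. Between genotypes limma called 0 of 4 in ΔPG RA (3 with an unadjusted p under 0.05) and 0 of 4 in ΔG RA (2 with an unadjusted p under 0.05). Of 6 other NMDA receptor subunits, Grin2c (0.61 and 0.63) and Grin2d (0.52 and 0.59) rose in both lines and Grin3a in ΔG, while Grin1 fell. These subunits were low, with group means of at most 3.20 for Grin2d and of 0.66 to 1.34 for Grin3a in ΔG. Grin2a, Grin2b and Grin3b had group means of -0.76 or lower, where rlog leaves little room for a change. Of 10 genes of the LDL receptor family and its partners, 4 rose and 2 fell in ΔPG, and 5 rose and 1 fell in ΔG. Lrp2 rose most, by 3.03 and 3.98. Lrpap1, the chaperone that keeps Lrp1 free of ligands on its way to the surface, was lower in homozygous RA cells by 0.58 in ΔPG and 0.50 in ΔG (limma adjusted p = 0.000309 and 1.21e-06), while Lrp1 itself differed by 0.04 and -0.09. It was the 1 gene of the 10 called between genotypes in ΔPG RA, and 1 of 2 in ΔG RA. The other was Vldlr, the receptor for very low density lipoprotein, lower in homozygous cells by 0.60 (limma adjusted p = 0.0242) and also called lower in ΔG ES, with -0.87, while in ΔPG RA its difference was 0.44 (limma adjusted p = 0.168).

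Of 14 genes of the clathrin coat and its link to actin, 3 rose and 2 fell in ΔPG, and 4 rose and 1 fell in ΔG. Hip1, the relative of Hip1r, rose in RA by 0.85 and 1.09. In ΔG RA, where Hip1r was lower in homozygous cells, limma called 0 of these 14 (5 had an unadjusted p under 0.05). In ΔPG ES Hip1 and Epn1 were called lower and Picalm higher, with -0.45, -0.07 and 0.34 after removal of the GC trend. Of 7 genes of lactate transport and lactate metabolism, the chaperone Emb rose by 2.68 and 3.32, and both lactate dehydrogenases fell, Ldha by 1.20 and 0.90 and Ldhb by 0.87 and 0.97. Bsg, the chaperone that brings Slc16a3 to the membrane, changed by -0.22 and -0.10, under the limit. Of 8 measured genes of the minor spliceosome, Snrnp25 fell by 0.70 in ΔPG and 0.51 in ΔG, as Zmat5 did in ΔPG, and Zrsr2 fell in ΔG.

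The nearest varying gene on each side of the 10 genes, 20 genes in all, was not called by limma between genotypes in ES, where 13.2% (ΔPG) and 0.984% (ΔG) of all genes were called, with 6 (ΔPG) and 4 (ΔG) of the 20 at an unadjusted p under 0.05. Of the 20, 8 had a mean rlog value under 3 in ES of either line, where rlog leaves little room for a difference of 0.5, so the count rests on 12 genes. In RA, 0 of 20 were called in ΔPG (2 had an unadjusted p under 0.05) and 1 of 20, Uqcr10 beside Zmat5, was lower by 0.52 in ΔG (limma adjusted p = 3.7e-05). Of the 10 genes, 5 overlap an exon of a gene on the opposite strand, namely Ccdc107 (RNase_MRP), Grin1 (E130003G02Rik), Kank3 (Rps28), Slc16a3 (Csnk1d) and Zmat5 (Cabp7), and reads were counted by strand. RNase_MRP, at a mean rlog value of 14.4 in ΔPG ES, was higher in homozygous cells by 0.39 there, opposite to Ccdc107, and Rps28 was higher by 0.48, opposite to Kank3. In ΔG ES these partners differed by 0.0073 and -0.06.

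The 4C-seq regions, which list chromatin contacted by the 5430416N02Rik promoter in ESCs in 2 replicates, held 8 of the 10 genes in replicate 1, 7 in replicate 2 and 6 in segments shared by both. Of 21900 protein-coding genes, 53.4%, 52.9% and 38.4% lay in them. The 6 in shared segments were Hip1r, Kank1, Kank3, Lrp1, Slc16a3 and 9830001H06Rik. Fgfrl1 and Hip1r lie on chromosome 5 like 5430416N02Rik, 8.26 Mb and 23.6 Mb away, and of these Hip1r lay in shared segments and Fgfrl1 in none.

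Correlations over the 24 samples used values scaled gene by gene to a mean of 0 and an SD of 1 within each line, since the lines were normalized separately. The 5 rising genes ran together, with Pearson r between pairs of 0.908 (Fgfrl1 and Hip1r) to 0.988 (Fgfrl1 and 9830001H06Rik), a description in which the samples share lines and the step from ES to RA. Grin1 and Kank3 had an r of 0.983. The genes most like the mean profile of the 10 over the 24 samples, among 11756 genes, were Gas2l1 (r = 0.868), Ephb4 (0.864), Ccdc134 (0.860), Sec14l2 (0.849) and Tsc22d4 (0.820). In that mean the rises and falls in RA offset each other. These 5 genes differed between genotypes by -0.76 to -0.58 in ΔPG ES and by -0.49 to -0.23 in ΔG ES, and their responses to RA lay between -0.12 and 0.25. These values follow in part from the match itself, since the ES difference that chose the 10 genes shapes their mean profile. The GC trend was not removed from the ΔPG ES values given here.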

How the data were processed

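The files used were RNA-seq tables covering 24 samples and lists of 4C-seq regions from 2 replicates. The authors aligned reads to NCBI37/mm9 with TopHat2 2.1.0, removed duplicates with Picard, made strand-specific counts per gene with HTSeq 0.6.0 on GENCODE gene models, and deposited rlog values on the log2 scale made with DESeq2 1.14.1, in 1 table per line. The sources used here do not say if the transformation was blind to the groups. The rlog values hold no counts, so the depth of a sample is unknown and counting error cannot be given. rlog also draws low genes towards their mean. The deposited 4C-seq files hold only the start and end of regions that the authors called per replicate. As deposited, 28 of 680 starts matched HindIII sites in NCBIM37 (within 8 bp), and 636 of 668 after the offset between GRCm38 and NCBIM37 gene positions was subtracted, so gene overlap used RefSeq positions on GRCm38.

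Groups followed the labels. R 4.3.3 with limma 3.58.1 (lmFit, eBayes with a trend) was fitted to all genes that varied, 21979 in ΔPG and 22048 in ΔG. Homozygous was set against heterozygous within the 6 RA samples, and RA against ES over the 12 samples of a line as the mean of both genotypes. A call needed a Benjamini-Hochberg adjusted p under 0.1, over all genes, and an absolute log2 difference over 0.5. The fits were tested on simulated data. GC content came from GENCODE exons on NCBIM37, and a lowess curve (span 0.3) was subtracted per sample over genes whose mean rlog value reached 3. Motifs were searched on both strands with Python 3.11.15. The 10 genes, the lists and the tests were chosen with earlier results of these data known. Genes named beside the 10 are list members that were called or are relatives of a named gene, the nearest gene on each side, the 5 genes most alike and those just inside the limits. The value just outside the limits is not reported here. Alternatives were other scalings, filters, variance models, limits, a replicate block, the removal of the GC trend and leaving out each replicate. Capture-C and RIP-seq data were not used here.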

Additional observations from a re-analysis of the deposited data

Results flagged for a closer look

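In ES all homozygous samples lay below all heterozygous samples for the 10 genes, by the choice of the genes. In RA they lay above all heterozygous samples in 6 cases. These were 4 of 10 genes in ΔPG and 2 of 10 in ΔG, against 9.93% and 10.1% of all genes. None of the 6 was a call. The change of the difference from ES to RA was 1.01 for Grin1, 0.85 for 9830001H06Rik, 0.77 for Slc16a3 and 0.64 for Lrp1 in ΔPG, and 0.80 for Kank1 and 0.77 for Slc16a3 in ΔG, on the log2 scale. With the GC trend removed, the ES differences of the ΔPG genes were -0.32, -0.22, -0.15 and -0.20 in that order. Their RA differences were then 0.34, 0.13, 0.24 and 0.04, so the changes in ΔPG were smaller. The change from ES to RA was not tested, since the ES values chose the genes. Slc16a3 is the 1 gene whose homozygous RA samples lay above in both lines, with RA differences of 0.24 and 0.22.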

How the results depend on the processing

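With an adjusted p under 0.1 alone, without a limit on size, the number of the 10 genes called higher in homozygous RA cells went from 0 to 1 in ΔPG and from 0 to 1 in ΔG (Slc16a3 in both), and the number called lower in response to RA in ΔG went from 3 to 5. Other settings left that last count between 2 and 4, left the other counts as they were, and reversed no direction of a call. Over all genes, calls between genotypes in RA were 53 higher and 133 lower in ΔPG, and 149 higher and 322 lower in ΔG. They became 519 and 487, and 1070 and 1363, with the adjusted p alone, and 34 and 93, and 81 and 194, when the limits were 0.05 for the adjusted p and 1.5 for the fold change. The responses to RA, 3592 higher and 2493 lower in ΔPG and 3766 and 2573 in ΔG, became 7678 and 6002, and 7786 and 5894, with the adjusted p alone. Under quantile normalization they were 2906 and 3052, and 2945 and 3275, and under median centring 3229 and 3190 in ΔG. No scaling moved the median of all genes by over 0.1.

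Within a state, heterozygous and homozygous samples with the same replicate number did not deviate together (correlations of -0.018 to 0.091), so the numbers were not taken as pairs. Whether ES and RA samples with the same number deviate together was not checked. With the replicate block, 27 genes were higher and 85 lower in ΔPG RA, the called members stayed at 0 in ΔPG RA and at 1 (Hip1r) in ΔG RA, and no call of the 10 genes changed in the responses to RA. Leaving out 1 replicate each time, the called members stayed 0 in ΔPG RA and 0 higher and 1 lower in ΔG RA, and for the responses 5 higher and 5 lower in ΔPG and 5 higher and 2 to 4 lower in ΔG (2 without heterozygous ES replicate 2 or heterozygous RA replicate 1 or 2, 4 without heterozygous RA replicate 3). Without homozygous replicate 2, calls over all genes in ΔPG RA were 34 higher and 101 lower.

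The limits of these data are 1 clone per genotype, 3 samples per group, no counts behind the rlog values, and a difference in ΔPG ES that follows GC content over all genes.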
